A study of Saccharomyces cerevisiae with 16 samples.

Results

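Transcript levels of budding yeast (Saccharomyces cerevisiae) that carry alanine in place of threonine 11 of histone H3, a mutant called H3T11A, were compared with those of YBL574, the histone strain from which the mutant was made. The comparison used 8 of the 16 RNA sequencing libraries of the study, namely the 4 of H3T11A and the 4 of YBL574. They come from 4 of its 12 biological replicates, since each RNA extraction of these strains was sequenced as 2 technical libraries, which were averaged. The samples are H3T11A replicates 1 and 3 and YBL574 replicates 2 and 3, and the genes are the 6498 of 7125 that reached an RPKM (a read count divided by gene length and library total) of at least 1 in at least 2 of these 4 replicates.

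Both strains share the S288C background and, per the study's strain list, whose entries mark this background YBL, the genotype MATa with the alleles lys2-128δ, trp1Δ63, ura3-52, leu2Δ1 and his3Δ200 and the lacZ reporter at his4, and deletions of both chromosomal H3-H4 loci, (hht1-hhf1)Δ::LEU2 and (hht2-hhf2)Δ::HIS3. By this genotype all H3 and H4 would come from a plasmid. The study describes YBL574 as carrying an HHF1-HHT1 plasmid that the mutant lost when the new plasmid was selected. The strain list does not use the name YBL574. It gives pDM18-HHT2-HHF2-TRP1 for a wild type of this background and the same plasmid with the alanine codon for the mutant. Whether that wild type is the strain sequenced is not given in the sources used here. TRP1 was at 0.964 and 0.393 RPKM in the YBL574 libraries and at 97.1 and 99.2 in H3T11A. The TRP1 plasmid of the listed wild type thus does not match the TRP1 level of the YBL574 libraries. All cells grew in rich medium (YPD) without other treatment. The sources used here do not say how many transformants were kept or whether replicates came from separate cultures, so p-values measure the spread between these samples, which may be technical.

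Threonine 11 lies in the N-terminal tail of H3, and in yeast it is phosphorylated by SESAME, a complex of pyruvate kinase with serine and methionine metabolic enzymes, and by the kinase CK2. The study asked what loss of the mark does at telomeres, where the SIR proteins keep nearby genes silent, and to the genes of autophagy. Yeast has a pair of loci that each hold an H3 gene next to a divergent H4 gene.

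The 8 libraries had fitted totals of 8774542 to 18078545 reads, recovered from the steps between low RPKM values, and 97.3% to 98.1% of low values were whole reads within 0.1 read. A count of 3 reads corresponds to 0.166 to 0.342 RPKM for a gene of 1 kb, which is the floor used below and covers counting error only. The median RPKM was 22.3 to 25.5, below the 30.5 to 35.6 of the 8 other libraries, so levels of the other groups are given only as context. Differences are on the log2(RPKM + 1) scale, H3T11A minus YBL574, which understates the change of genes near or under 1 RPKM, and tests are limma fits with Benjamini-Hochberg adjustment over all 6498 genes. A gene is called past the threshold at an adjusted p under 0.05. An exact permutation test of 2 against 2 samples cannot go below p = 0.333.

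The codon at issue is shown in both H3 gene copies, because the values turn on which copy each strain expressed. Each line gives the first 60 bases of the coding sequence in the RefSeq R64 genome, 5′ to 3′, with the threonine 11 codon (bases 34 to 36, codon 12 when the start codon is counted) in capitals.
HHT1, chrII:256331-256390, plus strand: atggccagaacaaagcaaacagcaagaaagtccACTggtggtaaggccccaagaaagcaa
HHT2, chrXIV:575991-576050, minus strand: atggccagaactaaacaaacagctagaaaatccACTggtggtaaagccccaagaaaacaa
The coding sequences of HHT1 and HHT2 differ at 28 of 411 bases, 6 of them within the stretch shown, and 25.1% of the 30-base words of either gene occur in the other. Those of HHF1 and HHF2, the H4 genes, differ at 8 of 312 bases and share 42.4% of their words. Reads from the shared stretches could be counted for either copy, so low values of a copy are uncertain. The alanine codon itself leaves no trace in values per gene, so the label H3T11A could be checked only through these genes.

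The strains expressed different H3 and H4 gene copies. HHT1 (YBR010W) read 1087 and 1200 RPKM in YBL574 and 6.78 and 9.78 RPKM in H3T11A, which gave a log2 difference of -6.96 ± 0.22 (SE) and an adjusted p of 0.00518. HHF1 (YBR009C, chromosome II, 255373 to 255684) was at 1037 and 1111 RPKM against 71.6 and 54.2. The other locus had the opposite order. HHT2 (YNL031C) was at 225 and 261 RPKM in YBL574 and at 918 and 1159 in H3T11A, which gave a log2 difference of 2.09 ± 0.23 (SE) and an adjusted p of 0.034. HHF2 (YNL030W, chromosome XIV, 576727 to 577038) was at 150 and 172 against 599 and 497. All 4 genes were past the threshold. None overlapped between the strains, as was so for 66.2% of all genes tested. The low HHT1 level of H3T11A differed between the technical libraries, with 1.45 and 12.1 RPKM in replicate 1 and 3.21 and 16.4 in replicate 3. In the 8 replicates of the 4 other groups, which were used only for such levels, HHT1 lay between 311 and 657 RPKM and HHT2 between 869 and 1491. H3T11A thus had an HHT2 level inside that range and almost no HHT1, and YBL574 had HHT1 above it and HHT2 below it. Both YBL574 replicates lay above the other groups for 7.59% of all genes tested and below them for 37.9%. The listed deletions with an HHF1-HHT1 plasmid would leave YBL574 without HHT2 and HHF2, so its levels of these genes do not match that description. Whether reads from the shared stretches account for them was not tested. The sequence change, the gene copy and the plasmid differ together between the strains and cannot be told apart in any result below.

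The marker genes differed as well. TRP1 (YDR007W, chromosome IV, 461842 to 462516), the tryptophan synthesis gene used to select plasmids, was at 0.964 and 0.393 RPKM in YBL574 and at 97.1 and 99.2 in H3T11A, so that the log2 fold change was 5.91 ± 0.21 (SE) with an adjusted p of 0.00518. In YBL574 both values lay above the floor of 3 reads, which for TRP1 corresponds to 0.246 to 0.375 RPKM in a library. URA3 (YEL021W, chromosome V, 116167 to 116970), which makes cells sensitive to fluoroorotic acid, was at 278 and 379 RPKM in YBL574 and fell to 85.4 and 99.6 in H3T11A. In both strains it lay above the range of the 8 replicates of other groups, 0 to 39.1 RPKM. For 7.59% of all genes tested both YBL574 replicates lay above such a range, and for 8.2% both of H3T11A. HIS3 fell from 213 and 189 to 82.5 and 58.8 RPKM, and HIS4 from 876 and 531 to 150 and 152. LEU2 and LYS2 did not pass the threshold, at log2 fold changes of -1.06 ± 0.25 and -0.46 ± 0.13. Of the 6 marker genes, 1 was higher and 3 were lower, beside 1.18% higher and 2.97% lower among all genes. None of these 4 overlapped between the strains, as was so for 66.2% of all genes tested. URA3 differed between technical libraries, with 350 and 205 RPKM in the first and second library of YBL574 replicate 2 and 64.3 and 106 in those of H3T11A replicate 1. With the first or the second technical libraries alone, with upper-quartile scaling, with array weights, or with a trend over gene length removed, 1 marker gene rather than 3 was past the threshold as lower. The lower count was 2 with a pseudocount of 0.1 or a mean of at least 10 RPKM, and 5 when all 6 groups shared a spread.

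**Figure D1:**
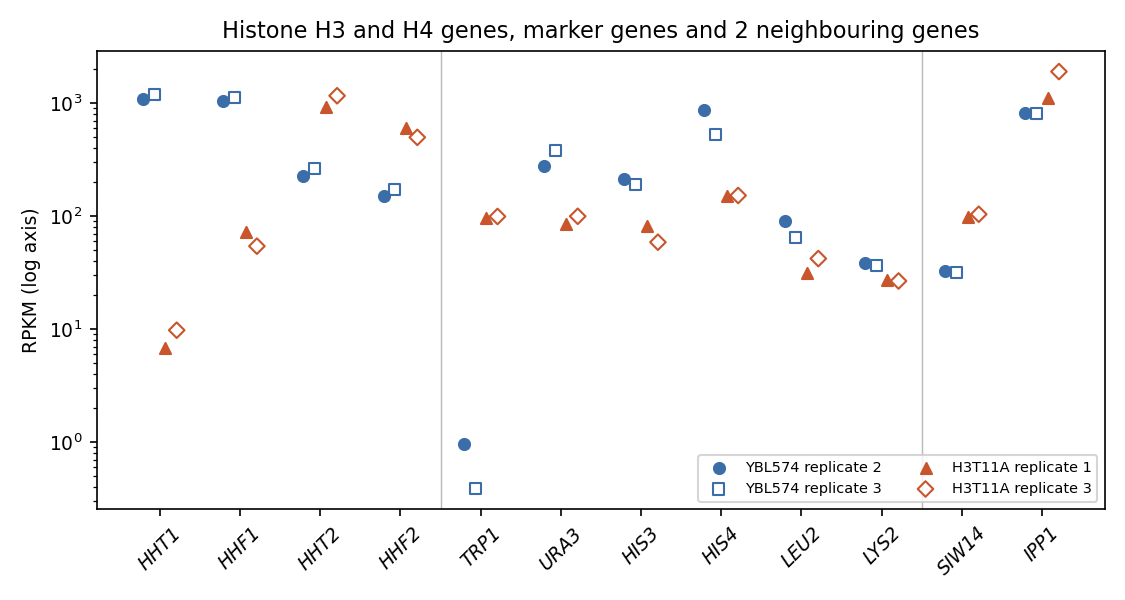
Levels in RPKM (log axis) of the H3 and H4 genes, the marker genes and a gene next to each H3 gene, with a point for each biological replicate of YBL574 (blue) and H3T11A (orange), each the mean of 2 technical libraries. HHT1 lies near 1000 RPKM in YBL574 and under 10 in H3T11A, HHT2 and TRP1 show the opposite order, and SIW14 lies at 32 RPKM in YBL574 and near 100 in H3T11A.

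Genes beside the H3 and H4 genes were examined next. SIW14 (YNL032W, chromosome XIV, 574506 to 575351), a phosphatase gene whose end lies next to HHT2, was at 32.6 and 31.8 RPKM in YBL574 and rose to 98.2 and 104 in H3T11A (log2 fold change 1.62 ± 0.15, SE, adjusted p = 0.0248). The next 2 genes on that side rose as well but from low levels. YNL033W was at 0.677 and 0.733 RPKM against 3.73 and 3.39, and YNL034W at 0.475 and 0.563 against 4.05 and 4.85. Both have a similar gene elsewhere on chromosome XIV, and these rose likewise, YNL019C by 1.51 and YNL018C by 1.89 on the log2 scale. YNL033W and YNL019C share 96.4% of their 30-base words and YNL034W and YNL018C 57.8%, so reads from the shared stretches cannot be told apart. Beyond them YNL035C had a log2 fold change of -0.53 ± 0.13, and on the other side of the locus KTR5 had 0.14 ± 0.16, neither past the threshold. At the HHT1 locus no neighbour passed. FLR1, beside HHF1, had a log2 fold change of 0.41 ± 0.15, and IPP1, the pyrophosphatase gene beside HHT1, had 0.84 ± 0.33 with 808 and 808 RPKM in YBL574 and 1102 and 1897 in H3T11A.

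**Figure D2:**
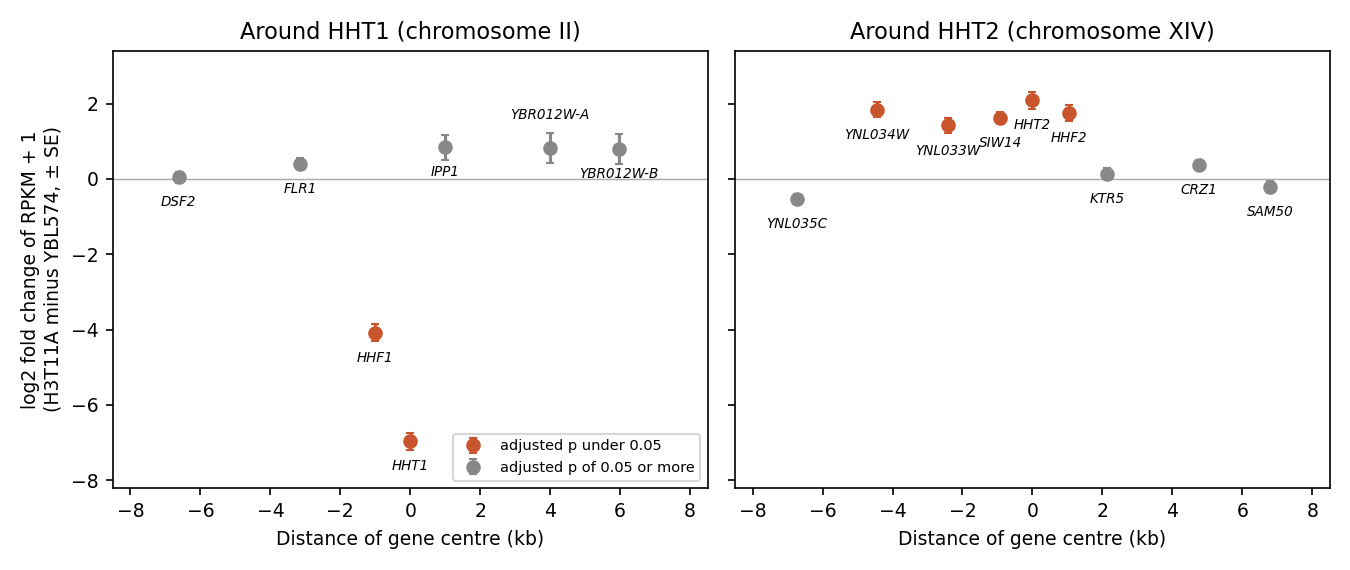
Log2 fold change of RPKM + 1 (H3T11A minus YBL574, with SE) of genes within 8 kb of HHT1 and of HHT2, by the distance of the gene's centre from that of the H3 gene. HHF1 and HHT1 stand at -4.09 and -6.96 with no neighbour past the threshold, whereas SIW14, YNL033W and YNL034W beside HHT2 stand at 1.62, 1.42 and 1.84.

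Across all genes, 270 of 6498 passed the threshold (adjusted p under 0.05, limma), 4.16% of those tested. Of these, 77 (1.18%) were higher in H3T11A and 193 (2.97%) lower, and the median log2 fold change of all genes was -0.05. At least 2-fold change without overlap between replicates was seen as higher for 171 genes (2.63%) and as lower for 406 (6.25%). The H3T11A replicates differed by an SD of 0.55 on the log2 scale over genes, and the YBL574 replicates by 0.23. The 2 technical libraries of a sample, before averaging, differed by an SD of 0.37 to 0.43. Within the first or the second technical libraries alone the YBL574 replicates differed by 0.27 or 0.29 and the H3T11A replicates by 0.57. The number of calls was 2771 (42.6%) when all 6 groups shared 1 estimate, 3601 without H3T11A replicate 1, 1992 without H3T11A replicate 3, and 2 without YBL574 replicate 2 or without YBL574 replicate 3, namely HHT1 and TRP1 each time. All 270 genes kept their direction when any 1 of the 4 replicates was left out. They were chosen by these same values, so this outcome was largely fixed in advance and gives no added support. A gene outside the 270 is not shown to be alike in both strains. At an unadjusted p under 0.05 in the limma fit, 1985 of the 6498 genes differed in either direction. List counts at that p are to be read beside this share.

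The 15 highest log2 fold changes past the threshold held TRP1, URA1 and HHT2, several chaperone genes, and the following. MDH2, the cytosolic malate dehydrogenase of gluconeogenesis, was at 23.4 and 26.9 RPKM in YBL574 and 147 and 117 in H3T11A. RIB4, lumazine synthase of the riboflavin pathway, was at 94.1 and 105 against 341 and 403. HPF1, a cell wall mannoprotein gene, was at 40.3 and 43.7 against 168 and 154, and PUL3, a transporter gene, at 0.899 and 1.53 against 12.3 and 12.2. The replicates of the strains lay far apart in each of these genes. YDR008C, which by its systematic name neighbours TRP1 (YDR007W) on the other strand, was at 0.087 and 0.079 RPKM against 8.75 and 9.79. Whether counting used strand is not given in the sources used here, so its reads and those of TRP1 cannot be told apart. YGR259C, which had no match in the reference, was at 0 and 0.914 RPKM against 9.46 and 9.43.

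The 15 lowest log2 fold changes past the threshold held HHT1, HHF1, ARG1 and ARG3, 7 tRNA genes, 2 snoRNA genes and the 2 genes that follow. ARO5 (YGL117W) was at 161.5 and 173.8 RPKM in YBL574 and at 17.6 and 18.98 in H3T11A, which gave a log2 fold change of -3.13 ± 0.15 (SE). YMR230W-A was at 10.5 and 12.8 RPKM against 0 and 0.302, too few reads for a fold. The tRNA genes were tK(UUU)Q, tS(UGA)Q2, tL(UAA)Q, tQ(UUG)Q, tP(UGG)Q, tH(GUG)G2 and tE(UUC)E2, which read 5.999 to 35.9 RPKM in YBL574 and 0 to 4.93 in H3T11A. The snoRNA genes were snR52 and snR72, the latter at 35.05 and 32.2 RPKM against 2.76 and 2.33, near its floor of 2.28 to 3.49 RPKM in the H3T11A libraries.

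Pyrimidine synthesis was represented by 3 called genes. URA1 (YKL216W, chromosome XI, 25215 to 26159), dihydroorotate dehydrogenase, was at 62.0 and 68.4 RPKM in YBL574 and at 724 and 749 in H3T11A, so that the log2 fold change was 3.48 ± 0.18 (SE) with an adjusted p of 0.0116. URA2, which starts the pathway, rose from 308 and 262 to 965 and 850 RPKM, and URA4, dihydroorotase, from 50.5 and 47.1 to 146 and 110. They are 3 of 18 listed pyrimidine genes tested, beside 1.18% higher among all genes, and 0 were called lower in the limma fit. At an unadjusted p under 0.05 in that fit 5 were higher and 2 lower, beside 1985 of all 6498 genes in either direction. The median of the list was 0.19, with 0.30 in H3T11A replicate 1 and -0.045 in replicate 3. With YBL574 replicate 2 or 3 left out the median was 0.23 or 0.15. URA2 is among the longest genes, and with a trend over gene length removed its log2 fold change was 1.10 and it did not pass (adjusted p = 0.0754, limma, within 0.000129 to 0.342 over all alternatives). URA3 itself acts in this pathway and fell, as given above. URA5 and URA10, the orotate phosphoribosyltransferases between URA1 and URA3 in the pathway, had log2 fold changes of 0.05 ± 0.20 and 0.02 ± 0.35. URA8, a CTP synthase, had 1.31 ± 0.26 (adjusted p = 0.059), and PPR1, the transcription factor that activates URA1 and URA4 in response to pathway intermediates, had 0.21 ± 0.14. FCY2, a cytosine and purine permease, was at 192 and 173 RPKM against 82.3 and 36.6 without passing. The other 10 members lay between -0.64 (DCD1) and 0.68 (CDD1), none past the threshold.

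The element to which Ppr1 binds, CGG and CCG separated by any 6 bases, was sought in the 400 bases before each start codon. It reads the same on both strands. It was present before 132 of 5990 genes (2.2%) and before 4 of the 18 pyrimidine genes. These were 2 of the 3 called higher and 2 of the 15 not called. URA2 had no match in this window. The matches nearest to the start codons of URA1 and URA4 are shown with the element in capitals, as 30 bases from R64 read in the direction of the gene.
URA1, chrXI:25025-25054, plus strand: cacgatcttCGGCATTCGCCGaaaattttt
URA4, chrXII:963646-963675, plus strand: ttcatcattCGGAGAATTCCGatgaatcgg

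Chaperone genes were higher in H3T11A. HSP82 (YPL240C, chromosome XVI, 96496 to 98625), the inducible Hsp90, was at 251 and 321 RPKM in YBL574 and at 1323 and 2187 in H3T11A, so that the log2 fold change was 2.58 ± 0.33 (SE) with an adjusted p of 0.0376. Its partner STI1, which links Hsp70 to Hsp90, was at 132 and 146 RPKM against 611 and 828, and HSC82, the constitutive Hsp90, at 692 and 758 against 2301 and 3666. HSP82 and HSC82 share 16.2% of the 30-base words of HSP82, and both rose. Of 30 heat shock and chaperone genes tested, 9 were higher and 0 lower, beside 1.18% higher among all genes. At an unadjusted p under 0.05 in the limma fit, 18 were higher and 1 lower, beside 1985 of all 6498 genes in either direction. The other 6 were CPR6 (an Hsp90 co-chaperone), HSP42 (a small heat shock protein), HSP104 (the disaggregase) and, of mitochondria, HSP60, HSP78 and SSC1.

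The rest of the list lay mostly on the same side. Its median log2 fold change was 1.34, against -0.05 for all genes, and 27 of its 30 genes had a positive value. At least 2-fold higher without overlap were 18 of them, beside 2.63% of all genes. SSA1 and SSA2, which encode cytosolic Hsp70, were at 1088 and 1159 RPKM and at 1143 and 1134 in YBL574, and at 2674 and 4111 and at 2970 and 4449 in H3T11A. Neither passed (adjusted p = 0.0586 and 0.0545), and KAR2, the Hsp70 of the endoplasmic reticulum, did not either, at 360 and 351 RPKM against 1230 and 783. The median was 1.29 in H3T11A replicate 1 and 1.32 in replicate 3, each set against the YBL574 mean. Gene by gene, 22 of the 30 were higher in replicate 3 than in replicate 1, by a median of 0.52 over the list. HSP12 was at 1201 and 866 RPKM in YBL574 and at 555 and 1288 in H3T11A, and HSP26 at 458 and 561 against 334 and 1343, and the strains overlapped. UBI4, the polyubiquitin gene, rose from 184 and 201 to 412 and 445 RPKM. The count of 9 fell to 3 with upper-quartile scaling, to 4 with either set of technical libraries alone and to 2 when a trend over gene length was removed. It was 21 when all groups shared a spread, beside 20.1% higher among all genes in that fit. With YBL574 replicate 2 or 3 left out the list's median was 1.24 or 1.40. The list's median lay between 1.24 and 1.44 over all settings.

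Heat shock factor Hsf1 binds repeats of NGAAN in alternating orientation. Its element was sought as TTC, GAA and TTC with any 2 bases between neighbours, or GAA, TTC and GAA on the other strand, in the same 400-base windows. It was found before 73 of 5990 genes (1.22%) and before 14 of the 30 listed chaperone genes. These were 5 of the 9 called higher and 9 of the 21 not called. Among the 68 protein-coding genes higher in H3T11A with a window 7 had it (10.3%), and among the 144 lower 1 had it (0.694%). HSP82, HSC82, CPR6 and SSC1 held no exact match to these letters in the window. The match nearest to the start codon is shown in capitals for the other 5 of the 9 called, in 30 bases read in the direction of the gene.
STI1, chrXV:380828-380857, plus strand: agtatgataGAACATTCCAGAAaaaaaatt
HSP104, chrXII:88317-88346, plus strand: atttttccaGAATTTTCTAGAAgggttatt
HSP42, chrIV:806374-806403, plus strand: aaagttctgGAAGGTTCGCGAAttgagaac
HSP78, chrIV:974465-974494, minus strand: tattttccaGAATGTTCTAGAAgtgttctt
HSP60, chrXII:665192-665221, minus strand: gacctcgtgGAATTTTCCAGAAaaccaaat

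Arginine synthesis genes were lower in H3T11A. ARG1 (YOL058W, chromosome XV, 219211 to 220473), argininosuccinate synthetase, was at 369 and 343 RPKM in YBL574 and at 27.9 and 19.3 in H3T11A, so that the log2 fold change was -3.88 ± 0.23 (SE) with an adjusted p of 0.0116. ARG3, ornithine carbamoyltransferase, was at 41.3 and 25.9 RPKM against 2.22 and 1.40. Of the 9 listed genes 7 were called lower and 0 higher, beside 2.97% lower among all genes, and the list's median was -1.61. All 9 were lower at an unadjusted p under 0.05 in the limma fit, beside 1985 of all 6498 genes in either direction. With either YBL574 replicate left out 0 were called. The others called were ARG4, ARG7, ORT1 (the mitochondrial ornithine carrier), CPA1 (of carbamoyl phosphate synthesis) and YER069W, the gene of the enzymes of the acetylglutamate steps. ARG2 and ARG8 had log2 fold changes of -0.68 ± 0.13 and -0.43 ± 0.14 without passing. ARG1 lay below the range of the 8 replicates of other groups (105 to 362 RPKM) in both H3T11A replicates, as did 33.8% of all genes tested. In YBL574 ARG1 lay within or just above that range. The breakdown genes CAR1 and CAR2 had log2 fold changes of 1.51 ± 0.25 and 1.55 ± 0.29 (adjusted p = 0.0508 and 0.0551). CAR1 was at 46.0 and 69.7 RPKM in YBL574 and at 154 and 174 in H3T11A, with no overlap, as for 66.2% of all genes.

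Genes of other amino acid pathways were called lower 1 or 2 per list, beside 2.97% lower among all genes. The called genes were HIS2 (1 of 5 histidine genes tested), ARO3 and ARO4, which start the aromatic pathway (2 of 12), and LYS21 (1 of 8 lysine genes). LEU3, the leucine regulator, was 1 of 12 leucine, isoleucine and valine genes. STR2 and STR3 of sulfur transfer were 2 of 30 sulfur and methionine genes. AGX1 of glycine was 1 of 11 serine, glycine and threonine genes. Single calls in lists this small do not speak for a pathway. ARO4 was at 466 and 426 RPKM in YBL574 and 142 and 119 in H3T11A, and ARO3 at 491 and 415 against 167 and 200. HIS1, with 400 and 392 RPKM against 158 and 44.1, and TRP4, with 90.8 and 88.0 against 37.0 and 20.1, did not pass, and their H3T11A replicates lay apart. The permease genes BAP3 and GNP1 (2 of 22 tested) fell by 1.85 and 1.06 on the log2 scale, and PCL5, the cyclin that promotes the breakdown of Gcn4, fell by 1.38. GCN4, the activator of these pathways, whose protein level is set mainly in translation, was at 695 and 722 RPKM against 504 and 365 and did not pass (log2 fold change -0.72 ± 0.24, adjusted p = 0.136). In the sulfur and methionine list 2 genes rose, CYS3 (cystathionine gamma-lyase) by 1.19 and MET5 (sulfite reductase) by 0.94. Medians were -0.96 for 5 histidine genes, -0.72 for 12 leucine, isoleucine and valine genes, -0.59 for 12 aromatic genes and -0.40 for 8 lysine genes.

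Gcn4 binds the sequence TGACTC, or GAGTCA on the other strand. It lay within 400 bases of the start codon in 619 of 5990 genes (10.3%), in all 9 arginine synthesis genes (the 2 not called included), in 37 of 144 protein-coding genes lower in H3T11A (25.7%) and in 6 of 68 higher (8.82%). The matches nearest to the start codon are shown for the 2 genes with the largest fall and for ORT1 and CPA1, with the element in capitals.
ARG1, chrXV:218925-218954, plus strand: tgccgtatggaaGAGTCAtttaaaggcagg
ARG3, chrX:268473-268502, plus strand: agggtcacgtcgTGACTCatatgctttctt
ORT1, chrXV:571021-571050, minus strand: agttctgcatcgTGACTCaccttgagctcg
CPA1, chrXV:882592-882621, plus strand: cttttcttttctTGACTCgtcgtttctttt

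**Figure D3:**
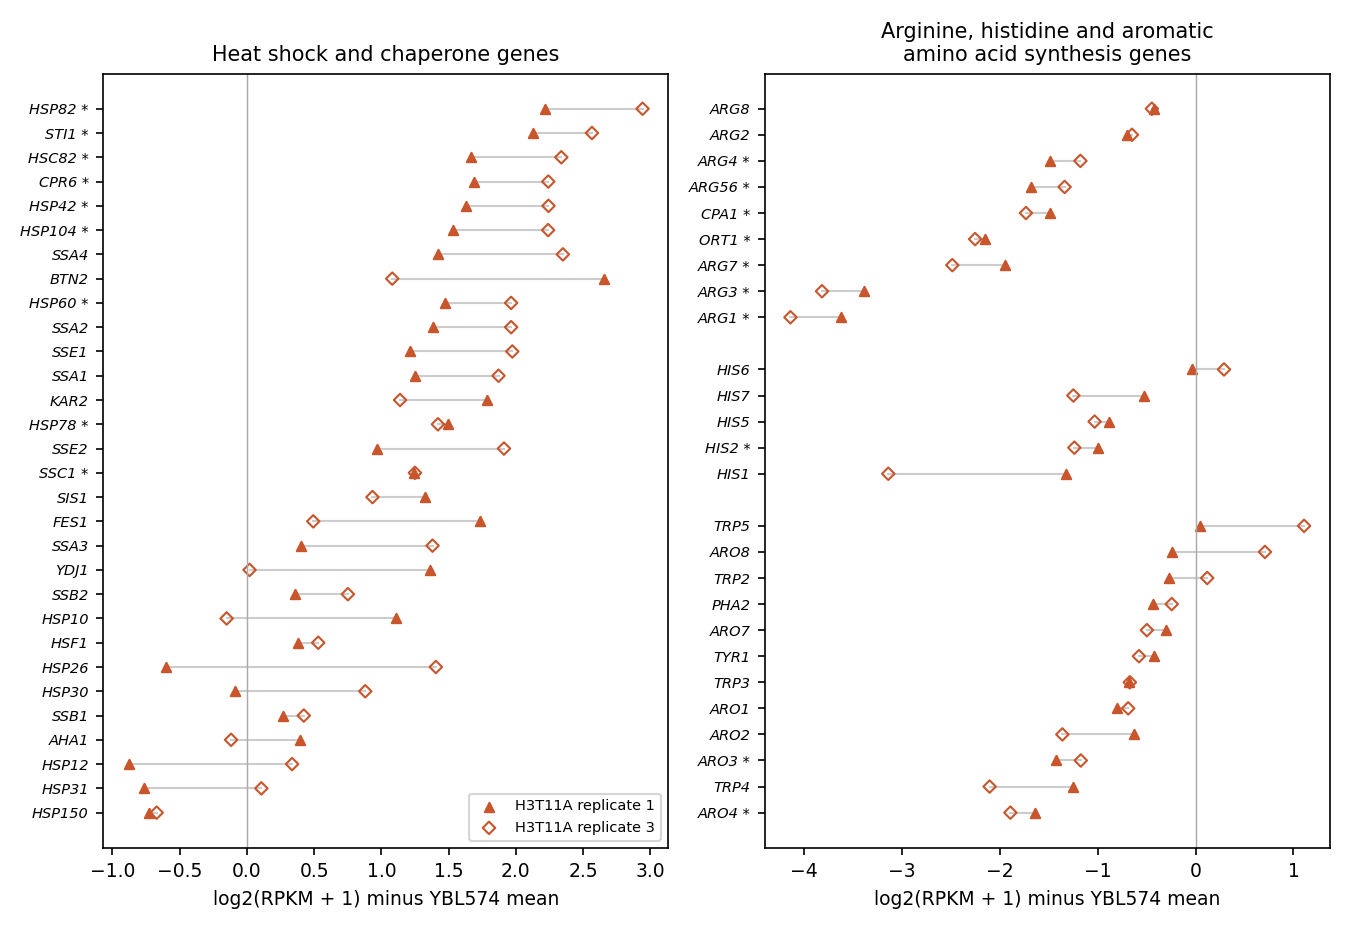
Log2(RPKM + 1) minus the YBL574 mean for every tested gene of the heat shock and chaperone list and of the arginine, histidine and aromatic amino acid lists, with a triangle for H3T11A replicate 1 and a diamond for replicate 3 (an asterisk marks genes past the threshold). HSP82 (log2 fold change 2.58) and ARG1 (-3.88) stand far from 0 in both replicates, while HSP26 and HSP12 have replicates on either side of 0.

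Genes near telomeres were counted because the mark was studied there. Of 229 tested genes that lay less than 20 kb from an end of their chromosome, 1 was higher and 11 were lower, beside 1.18% higher and 2.97% lower among all genes, and their median log2 fold change was -0.05, the value of all genes. The medians were -0.03 within 5 kb (47 genes), -0.09 from 5 to 10 kb (62 genes), -0.10 from 10 to 20 kb (120 genes) and 0.04 from 20 to 30 kb (140 genes). The 1 higher gene was PCA1, a cadmium exporter, with 11.3 and 11.2 RPKM in YBL574 and 25.9 and 21.0 in H3T11A. The lower genes were COS10 (16.2 and 13.5 RPKM against 1.82 and 2.85), COS12, AIF1, PAU18, MAL33, SRY1, DIA1, CSS3, YER188W, YIR042C and YOL159C-A. With an upper-quartile scaling the median of these 229 genes was 0.03, so its sign depended on the scaling. The median was -0.12 without H3T11A replicate 1 and -0.13 without H3T11A replicate 3. Without YBL574 replicate 2 or 3 it was -0.03 or -0.135. The genes that the study had examined at chromosome ends were not called. COS8 was at 58.8 and 63.5 RPKM against 62.1 and 73.7, PHO11 at 14.9 and 13.9 against 14.6 and 13.4, SOR1 at 8.17 and 8.86 against 7.44 and 10.4, and YCR106W (RDS1) at 19.4 and 17.98 against 14.3 and 10.01. SEO1 was at 2.22 and 1.798 RPKM against 1.03 and 1.02, with a log2 fold change of -0.57 ± 0.21 (adjusted p = 0.154). YFR057W was under 1 RPKM in all 4 replicates and was not tested.

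The genes of the silencing machinery were mostly not called. SIR2, the histone deacetylase of the SIR complex, was at 19.4 and 15.2 RPKM in YBL574 and 13.1 and 11.2 in H3T11A (log2 fold change -0.47 ± 0.18, adjusted p = 0.164). SIR3 had 0.44 ± 0.13 and SIR1 -0.11 ± 0.15. SIR4, the scaffold of the complex, was at 15.5 and 14.8 RPKM against 25.8 and 27.8, with no overlap, as for 66.2% of all genes. Its adjusted p in the limma fit was 0.0508, just outside the threshold. HST2, a SIR2 homologue, was the 1 gene of the 27 in the list that passed, beside 4.16% of all genes, and it fell from 51.0 and 54.6 to 27.6 and 24.8 RPKM. Of 13 SESAME enzymes and H3T11 kinases 0 passed in the limma fit (1 lower at an unadjusted p under 0.05), and none reached a 2-fold change without overlap. When all groups shared a spread 4 passed, not above the 42.6% of all genes that passed in that fit. CDC19, which encodes the pyruvate kinase Pyk1, was at 4254 and 3686 RPKM in YBL574 and 5579 and 8903 in H3T11A. SER33 had a log2 fold change of -0.95 ± 0.21 and ACS2 of 0.61 ± 0.26, whereas CKA1 and CKA2, the catalytic subunits of casein kinase 2, had -0.15 ± 0.13 and -0.12 ± 0.15. The other 8 members lay between -0.56 (SAM1) and 0.42 (MEK1).

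Of 37 ATG genes, which encode the autophagy machinery, 0 were called higher and 1 lower, beside 1.18% and 2.97% of all genes. The called gene was ATG41, which fell from 145 and 146 to 39.4 and 23.5 RPKM. The median of the list was 0.24, but the H3T11A replicates differed, with 0.001 in replicate 1 and 0.38 in replicate 3, and 33 of the 37 genes were higher in replicate 3 than in replicate 1. With YBL574 replicate 2 or 3 left out the median was 0.21 or 0.185. A direction for the list as a whole thus rested on replicate 3.

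Of 7 other histone genes 0 passed. At an unadjusted p under 0.05 in the limma fit 3 were lower, beside 1985 of all 6498 genes in either direction. HTA1, HTA2 and HTB2, which encode H2A and H2B, had log2 fold changes of -1.51 ± 0.29, -1.12 ± 0.21 and -1.34 ± 0.25 (adjusted p = 0.0591, 0.056 and 0.0561, limma). None of the 3 overlapped between the strains, as was so for 66.2% of all genes tested. HTA1 was at 523 and 592 RPKM in YBL574 and at 248 and 153 in H3T11A, whereas HTB1, its divergent partner, was at 540 and 575 against 578 and 880. Both strains had the transcripts of MATa cells. MFA2, an a-factor gene, was at 1146 and 1215 RPKM in YBL574 and 745 and 783 in H3T11A, and MF(ALPHA)1, the alpha-factor gene, was at 3.96 and 5.21 against 2.01 and 2.73. None of the 7 a-specific and 4 alpha-specific genes passed.

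The H3T11A replicates differed from each other in whole groups of genes. Replicate 3 was lower than replicate 1 for 136 of 137 cytosolic ribosomal protein genes, by a median of 0.73 on the log2 scale, and for 61 of 63 ribosome biogenesis genes, by 0.81. It was higher for 18 of 20 trehalose and glycogen genes (median 0.94), 20 of 23 stress regulators (0.74) and 24 of 27 glycolysis and fermentation genes (0.54). Between the YBL574 replicates the same medians lay between -0.12 and 0.17. A difference of at least 2-fold separated the H3T11A replicates for 438 genes (6.74%) and the YBL574 replicates for 25 (0.385%). These values describe 1 replicate against another, with no test.

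CYC7, the hypoxic form of cytochrome c, was at 34.0 RPKM in H3T11A replicate 1 and 281 in replicate 3, with 38.2 and 44.1 in YBL574. CTR1, the copper transporter, was at 228 in replicate 1 and 24.5 in replicate 3, and FRE1, the iron and copper reductase, at 108 and 15.03, with 245 and 279 RPKM and 115 and 121 in YBL574. In these 3 genes replicate 1 stood near YBL574 and replicate 3 apart, which was not so for all genes that separated the replicates. DDR2 was at 171 and 152 RPKM in YBL574, 46.7 in replicate 1 and 230 in replicate 3. FRE7 was at 112 and 130 RPKM in YBL574, 37.4 in replicate 1 and 5.95 in replicate 3. Against the YBL574 mean, the median of ribosomal protein genes was -0.16 in replicate 1 and -0.92 in replicate 3. Of these 137 genes 0 were called higher and 3 lower, not above the 2.97% lower among all genes. At an unadjusted p under 0.05 in the limma fit the counts were 0 and 26, beside 1985 of all 6498 genes in either direction. With YBL574 replicate 2 or 3 left out the median of the list was -0.59 or -0.485. The 3 genes were RPS9A (222 and 217 RPKM against 46.4 and 25.8), RPL22B (161 and 169 against 27.4 and 29.2) and RPL15B (121 and 114 against 56.4 and 50.5). For ribosome biogenesis the medians were 0.07 and -0.73, and for trehalose and glycogen -0.15 and 0.80, and 0 genes of these lists were called. At an unadjusted p under 0.05 there were 2 higher and 2 lower ribosome biogenesis genes, and 0 higher and 1 lower trehalose and glycogen gene.

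**Figure D4:**
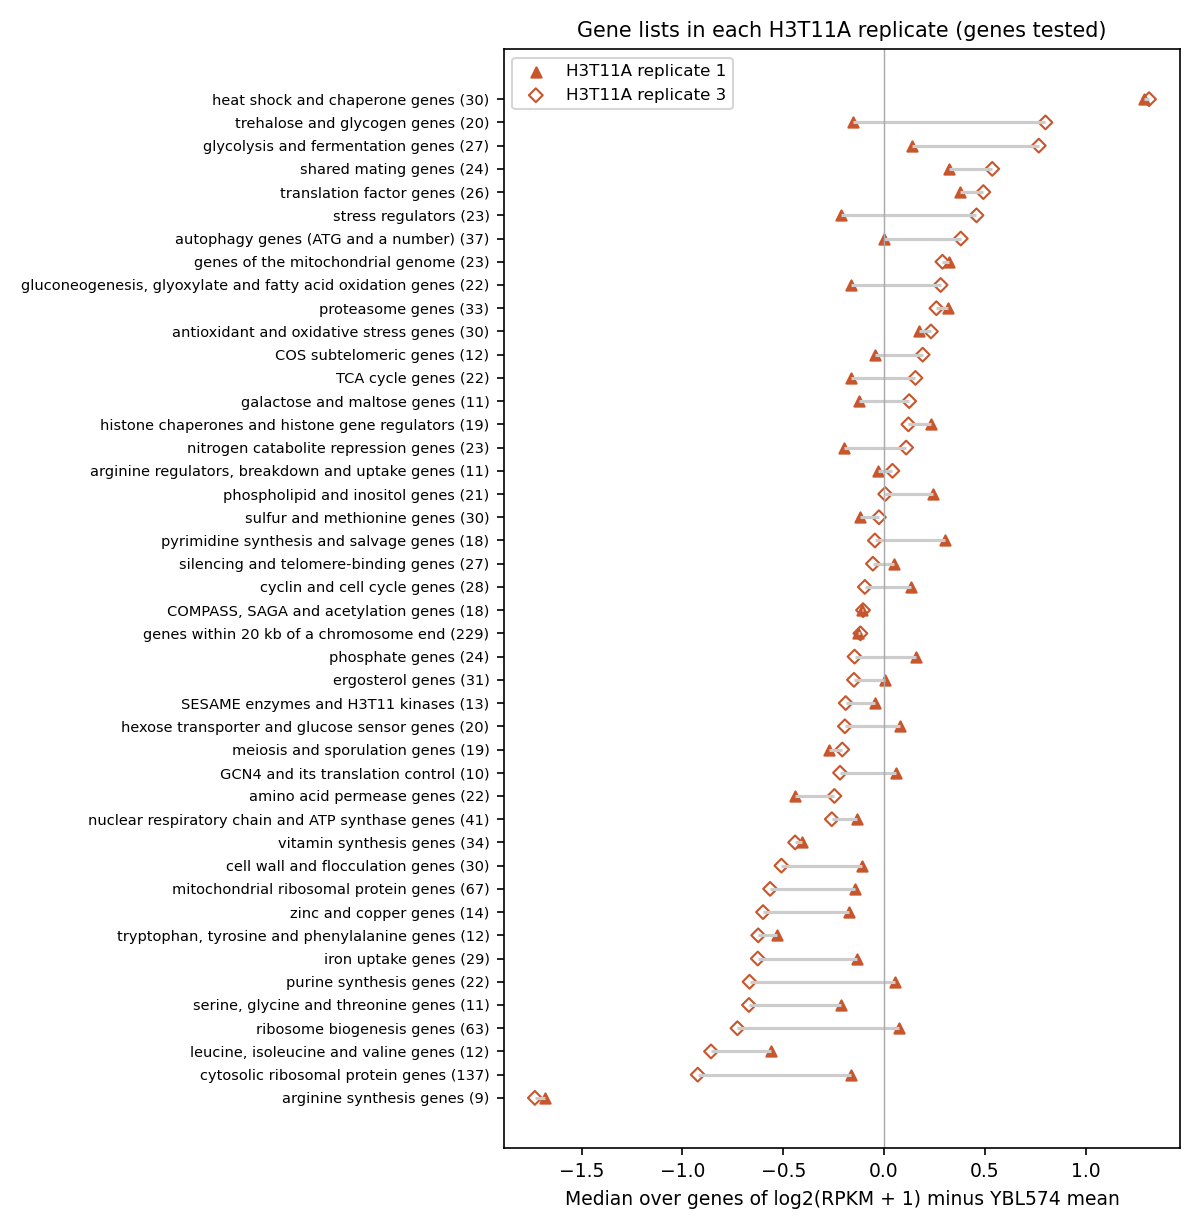
Median over the tested genes of each list (number in brackets) of log2(RPKM + 1) minus the YBL574 mean, with a triangle for H3T11A replicate 1 and a diamond for replicate 3, for lists with at least 9 tested genes. The heat shock list (1.29 and 1.32) and the arginine synthesis list (-1.68 and -1.73) lie far from 0 in both replicates, whereas ribosomal protein genes (-0.16 and -0.92) and trehalose and glycogen genes (-0.15 and 0.80) differ between them.

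The log2 fold change varied with gene length. Its median was -0.45 for 100 genes shorter than 150 bp and -0.21 for 1511 genes of 500 to under 1000 bp, and it was 0.34 for 292 genes of 3000 to under 4000 bp and 0.48 for 249 genes of 4000 bp or more. Of the 249 longest genes 15 were called higher and 0 lower, beside 1.18% and 2.97% of all genes. Both H3T11A replicates showed it, with 0.48 and 0.42 for the longest genes, and between the YBL574 replicates these genes had -0.07. Long genes among the calls included RPO21 (the largest subunit of RNA polymerase II) at 1.06 and URA2 at 1.67. With a length trend removed from each sample, 95 of 6008 genes with a known length passed, 23 higher and 72 lower, all 95 among the 270. URA1, STI1, HHT2, ARG1 and ARG3 were among them, and URA2 was not.

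**Figure D5:**
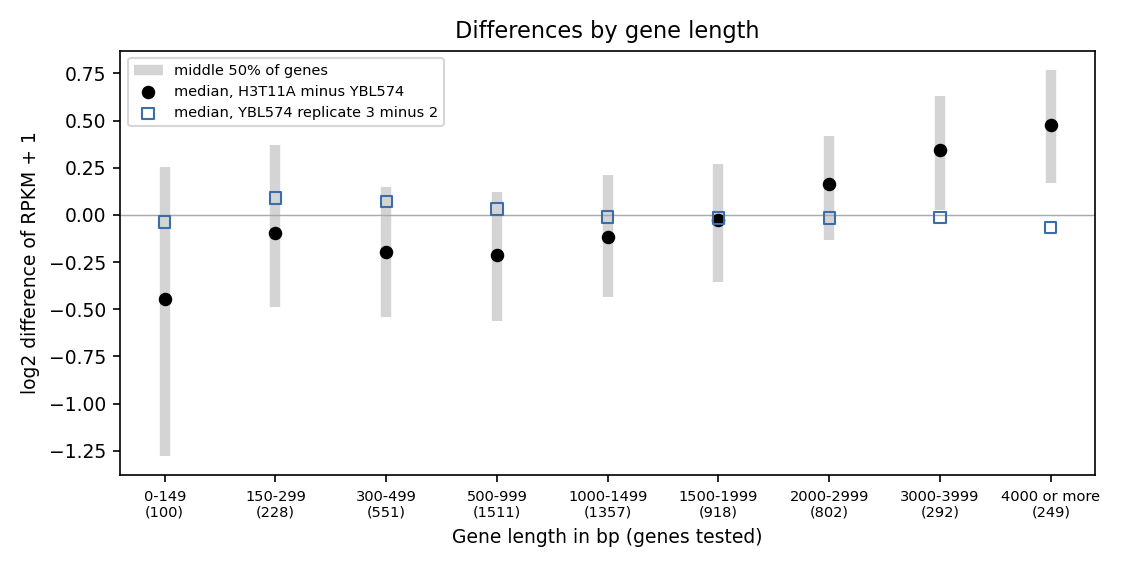
Median log2 fold change of RPKM + 1 (H3T11A minus YBL574, black) and the middle 50% of genes (grey) by gene length, with the number of tested genes in brackets, beside the median difference between the 2 YBL574 replicates (blue). The black median rises from -0.21 at 500 to under 1000 bp to 0.48 at 4000 bp or more, while the blue median lies between -0.07 and 0.09.

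Of the 193 lower calls 144 were protein-coding genes, and short RNA genes were also among them. Of 12 tRNA genes with a match in the reference, all of the mitochondrial genome, 10 were called lower and 0 higher, and of 76 snoRNA genes 8 were lower and 0 higher, beside 2.97% lower among all genes. The mitochondrial tRNA gene tL(UAA)Q was at 31.3 and 32.1 RPKM in YBL574 and at 3.30 and 2.25 in H3T11A. A value of 3 reads corresponds to 2.63 to 4.02 RPKM for this gene of 85 bases in the H3T11A libraries, so it lay near the floor there and no fold is given. The snoRNA gene snR52 was at 142 and 149 RPKM against 25.04 and 16.0, while the median of all 76 snoRNA genes was 0.32 and 46 of them lay above 0. In the shortest class the second library exceeded the first by a median of 0.215 on the log2 scale, and tL(UAA)Q was at 21.5 and 41.1 RPKM in the first and second library of YBL574 replicate 2. Of 23 tested genes with systematic names of the mitochondrial genome 3 were called lower, namely Q0142, Q0143 and Q0182, beside 2.97% of all genes. Most of this list had the other sign, with 17 of 23 above 0 and a median of 0.295. The count was 0 with the first technical libraries alone, with the length trend removed (19 genes tested) and with either YBL574 replicate left out.

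The other lists with calls held few each, beside 1.18% higher and 2.97% lower among all genes. Of 34 vitamin synthesis genes tested 1 was higher, RIB4, and 4 were lower, namely RIB5, BNA1, SNZ1 and SNO1. RIB5, which acts after RIB4 in the same pathway, fell from 309 and 348 to 119 and 117 RPKM, the opposite direction to RIB4. ADH5, an alcohol dehydrogenase, fell from 120 and 85.1 to 13.3 and 17.0 RPKM. ADR1, the activator of genes for growth without glucose, rose from 15.3 and 16.0 to 55.9 and 43.7. STE11 and FIG2 of the mating pathway rose by 1.16 and 0.87, CDC6 (replication licensing) rose by 1.10 and CLB1 (a mitotic cyclin) fell by 2.18. YBR208C, the urea amidolyase gene, rose by 1.06. Lower calls with low values were PHM6, CTR3 and IME1, the last of which was at 4.20 and 3.65 RPKM against 0.953 and 1.06. In 19 lists with at least 10 genes tested, 0 genes passed. Among these, purine synthesis had 9 of 22 genes above 0, proteasome 30 of 33 with a median of 0.30, translation factors 22 of 26 with a median of 0.46, and respiratory chain 14 of 41 with a median of -0.21.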

How the data were processed

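Total RNA was sequenced on an Illumina instrument, and per gene RPKM values were deposited for each library. The authors made the deposited RPKM table from their reads, and the submitters' processing notes name CASAVA 1.8.2, TopHat2 2.0.13, edgeR and the build sacCer3. Their roles and settings, and any use of strand, are not given in the sources used here. The 2 technical libraries of each RNA extraction were averaged, giving 2 against 2 samples. Genes with at least 1 RPKM in at least 2 replicates were kept. Values were taken as log2(RPKM + 1) and compared with limma 3.58.1 in R 4.3.3 (trended variance, 2 residual degrees of freedom, Benjamini-Hochberg adjustment). The fit was tested on simulated data. With 200 of 6498 genes changed by 1 on the log2 scale, the fit recovered 0 of the 200. With 200 genes changed by 2 on that scale, the fit recovered 149. Gene positions and sequences come from RefSeq R64, to which 6167 of 7125 identifiers matched (86.6%).

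Text genes were drawn from the histone, marker, pyrimidine, arginine, SESAME, SIR and telomere lists, the 15 highest and 15 lowest called genes, and in other lists the called members or, where none was called, the 2 largest changes. Members not named singly are covered by counts or ranges. Genes named beyond this were chosen after their values were seen. The members and lists were chosen with earlier results of these data known. Alternatives were a fit of all 6 groups, pseudocounts 0.1 and 5, no filter, a mean of at least 10 RPKM, median-of-ratios and upper-quartile scaling, either technical library alone, each replicate left out, array weights and, chosen after seeing the data, removal of a trend over gene length. An item of the lists is not reported here.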

Additional observations from a re-analysis of the deposited data

How the results depend on the processing

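Each setting is given as all calls, then higher and lower, beside 270, 77 and 193. A fit of all 6 groups gave 2771, 1305 and 1466. A mean of at least 10 RPKM gave 163, 44 and 119. Upper-quartile scaling gave 135, 36 and 99. The first technical libraries gave 115, 25 and 90, and the second 155, 33 and 122. Removing the length trend gave 95, 23 and 72, in fewer genes. A pseudocount of 0.1 gave 48 higher. Leaving out 1 replicate gave 2 to 3601 calls, 1 to 1596 higher and 1 to 2005 lower. The count was 2 without YBL574 replicate 2 or without YBL574 replicate 3, 3601 without H3T11A replicate 1 and 1992 without H3T11A replicate 3. In these fits the lone sample is assumed to vary like the other group. The cause of these differences was not tested. The other settings kept each count within 1.5 times. Of the 270 genes, 67 (13 higher, 54 lower) were past the threshold in all 11 alternatives, replicates left out aside, that tested them. No paired analysis was possible because the strains share only replicate number 3. Depth limits values near the floor of 3 reads.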

Other observations

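In the CUP1 repeat of chromosome VIII, looked at after its values were seen, the noncoding genes RUF5-1 and RUF5-2 and the reading frame YHR054C fell. RUF5-1 (212409 to 213118) was at 24.9 and 22.8 RPKM in YBL574 and 6.38 and 6.97 in H3T11A, and YHR054C (213185 to 214249) at 58.9 and 48.9 against 19.8 and 17.0. RUF5-2 had a log2 fold change of -1.38 ± 0.14 (SE). CUP1-1, the metallothionein gene of the same repeat, was at 573 and 687 RPKM against 633 and 297 and did not pass, with overlap between the strains. CUP1-2 had a log2 fold change of -0.56 ± 0.39 and RSC30, beside the repeat, of -0.62 ± 0.15, neither past the threshold. The repeat units are near-identical, so their reads cannot be told apart.

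Reading frames of Ty retrotransposons, also chosen after their values were seen, had positive log2 fold changes for 91 of 91 tested, with a median of 0.85, and 2 were called higher (YHL009W-B and YJL113W). The median was 0.48 in H3T11A replicate 1 and 1.25 in replicate 3, beside 0.48 and 0.42 for all genes of 4000 bp or more. These copies share most of their sequence, so the 91 values are not separate measurements.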
